A study of Mus musculus with 2 samples.

Results

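The genes described are the immunoglobulin heavy chain variable genes of the mouse, taken as those whose symbol starts with Ighv and whose Ensembl biotype is IG_V_gene. Of the 38788 genes of the count table, 109 met this rule. They are 109 of 113 such genes of the annotation, and the other 4 were not analysed here. The 109 members lie on the minus strand of chromosome 12 (GRCm38), between positions 113578504 and 116000461, and fall into 15 families numbered by sequence likeness. The 34 Ighv pseudogenes of the table were kept apart.

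The RNA was measured with scM&T-seq, which reads the transcriptome and the DNA methylation of the same single cell, in blood cells of wildtype male C57BL/6 J mice. Blood came from 2 mice of 10 weeks (9.6 and 9.7 weeks), 3 of 36 weeks (36.1), 3 of 77 weeks (77 to 77.4) and 3 of the oldest age (99.1 to 101.1 weeks), untreated at every age. At 10 weeks the cell list held 1 mouse fewer than the study describes. The mouse was the replicate. Of 981 cells with an RNA profile listed by the study, 600 carried the annotation B-cell, 29 to 78 per mouse, with a median of 328496 counts (157049 to 1222914). The label held against its markers: Cd79a was detected in 98.8% of the B-cells and Ms4a1 (CD20) in 94.3%, and Cd3d of the T-cell receptor complex in 0.833%.

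A B-cell builds its heavy chain by joining 1 of many V genes to a D and a J segment in front of the constant genes, and silences the second allele, so that nearly every mature B-cell transcribes a single rearranged V gene. The promoter of a V gene becomes active when the rearrangement brings it close to the heavy chain enhancers. A cell that meets antigen can multiply into a clone that shares its V gene, and clonal growth is known to narrow the repertoire of aged mice.

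The V exons of the 3 most used members are shown first, because they carried more cells than any others in these mice. The last bases of the exon, up to the end of the annotated transcript with the shortest V exon, are printed 5′ to 3′ on the minus strand, and the capitals mark the codon of the conserved cysteine that precedes the junction. They lie at chr12:114788372-114788671 (Ighv1-26), chr12:115507545-115507844 (Ighv1-64) and chr12:114288157-114288455 (Ighv3-6), all exonic, GRCm38, as read from the GENCODE M21 transcripts.
Ighv1-26: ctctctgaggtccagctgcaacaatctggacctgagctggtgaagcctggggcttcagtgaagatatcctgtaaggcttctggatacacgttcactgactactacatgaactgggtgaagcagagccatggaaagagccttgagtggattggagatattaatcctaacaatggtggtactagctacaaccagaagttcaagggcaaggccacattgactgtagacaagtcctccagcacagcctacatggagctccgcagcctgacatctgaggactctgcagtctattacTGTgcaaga
Ighv1-64: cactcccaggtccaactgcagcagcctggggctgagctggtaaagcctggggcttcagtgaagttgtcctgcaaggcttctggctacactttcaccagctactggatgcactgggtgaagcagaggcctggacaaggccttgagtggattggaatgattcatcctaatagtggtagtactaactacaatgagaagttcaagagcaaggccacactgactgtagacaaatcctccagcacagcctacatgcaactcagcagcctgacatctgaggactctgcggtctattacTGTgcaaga
Ighv3-6: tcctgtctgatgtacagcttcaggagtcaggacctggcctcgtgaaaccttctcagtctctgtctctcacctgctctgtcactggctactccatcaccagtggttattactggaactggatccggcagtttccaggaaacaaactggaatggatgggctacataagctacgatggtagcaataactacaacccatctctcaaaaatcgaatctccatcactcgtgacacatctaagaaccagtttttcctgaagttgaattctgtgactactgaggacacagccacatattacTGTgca
Ighv1-26 and Ighv1-64, both of family 1, shared 85.7% of their aligned bases. Ighv3-6 shared 61.0% with Ighv1-26 and 60.2% with Ighv1-64. Across all 109 members, the nearest other member shared a median of 95.6% of the aligned bases, and 16 members had one at 98% or more, so that reads of some genes cannot be told apart with certainty.

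Ighv transcripts marked the B-cells. At least 1 Ighv count was present in 578 of 600 B-cells (96.3%, exact Clopper-Pearson 95% interval 94.5 to 97.7), against 16 of the 378 cells of other types (4.23%), whose depth was greater (median 422503 counts). The B-cells carried a median of 468 Ighv counts per cell, or 1450 CPM (the count scaled to a total of 1000000 per cell). A cell was assigned its largest Ighv gene where that gene had at least 10 counts and at least 50% of the Ighv counts. By this rule 573 B-cells (95.5%, 93.5 to 97.0) had a gene, against 7 of the other cells (1.85%, 0.748 to 3.78) and 0 of 151 CD4+ T-cells (interval up to 2.41%). In the assigned cells the largest gene held a median of 98.1% of all Ighv counts, and in 368 of 573 it held at least 95%. These intervals cover counting error over the pooled cells only, not the spread between mice.

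The remaining 27 B-cells had no assigned gene. Of these, 22 had no Ighv count, 4 had 1 to 9 counts, and in 1 cell no gene reached 50%. Each of the 27 had a light chain V gene assigned by the same rule, and 26 had Ighm counts. Their Ighm level was lower, with a median of 1539 CPM against 3790 CPM in the assigned cells, whereas their light chain V level was 10011 CPM against 7991 CPM. Mouse 21, at 77 weeks, held 9 of the 27. An Ighv pseudogene had at least 10 counts in 1 of the 27. Other rearranged genes not counted at an annotated member were not tested as the source.

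The B-cells used 82 of the 109 members, and 12 of these were seen in 1 cell each. All 27 members that no cell was assigned to had at least 1 B-cell count. Ighv1-26 was the most used gene, with 35 cells (6.11% of assigned cells, 4.29 to 8.39), in 10 of 11 mice. Ighv1-64 followed with 26 cells, Ighv3-6 with 25 and Ighv1-81 with 21. Ighv1-9 and Ighv9-3 had 18 each, Ighv5-17 and Ighv1-55 had 15 each, and Ighv1-72, Ighv5-4 and Ighv1-53 had 14 each. The 10 most used genes together held 201 of the 573 cells (35.1%), and 6 of the 10 belong to family 1. No gene was used in all 11 mice, and 17 were used in 8 or more.

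**Figure D1:**
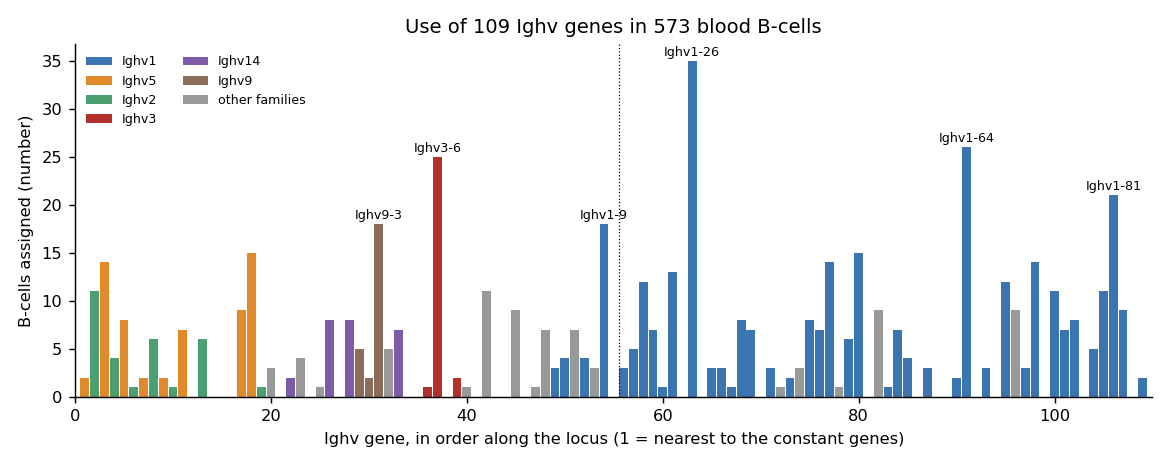
Number of B-cells assigned to each of the 109 Ighv genes (y axis), in order along the locus from the gene nearest to the constant genes (x axis), coloured by family, with the dotted line after the gene that closes the proximal part. Ighv1-26 stands highest with 35 cells, and used genes occur along the whole locus.

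Family 1, the large J558 group, was used by 331 cells (57.8%) and holds 46.8% of the members. Family 5 followed with 59 cells (10.3%), family 2 with 30, family 3 with 28, families 9 and 14 with 25 each, family 8 with 24, family 6 with 20 and family 10 with 14. Families 7, 4, 15, 11 and 13 had 8, 4, 3, 1 and 1 cells. The single member of family 12 had none. Per member, use was highest in families 10 (7.0 cells), 1 (6.49), 9 (6.25) and 14 (6.25), and among families with at least 10 cells it was lowest in family 8 (2.67) and family 2 (3.33).

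Use was spread over the locus. When the members were split into 5 stretches of 21 or 22 genes, the stretch nearest to the constant genes held 4.38 cells per gene and the farthest 6.5. The distal part of the locus, 54 of the 109 genes, was used by 325 of 573 cells (56.7%, 52.5 to 60.8). The used and the unused members were alike in base composition, with a median GC content of the V exon of 50.3% and 49.3%. Of the 27 unused members, 12 lie in the distal part.

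Members with a known specificity differed in use. No B-cell was assigned Ighv11-2 or Ighv12-3, the V genes of phosphatidylcholine-binding B-1 cells, although 6 and 2 cells held a count of them. In 573 assigned cells, an assignment to 0 cells is compatible with a share of up to 0.524% (3 cells, an approximate bound unlike the exact intervals above). Ighv7-1, the V gene of T15 antibodies against phosphorylcholine, was assigned to 3 cells, 1 each in mouse 15 (36 weeks), mouse 2 and mouse 3 (both of the oldest age). Ighv1-72, the V186.2 gene of the response to nitrophenyl haptens, was assigned to 14 cells in 8 mice, 5 of them in mouse 3.

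**Figure D2:**
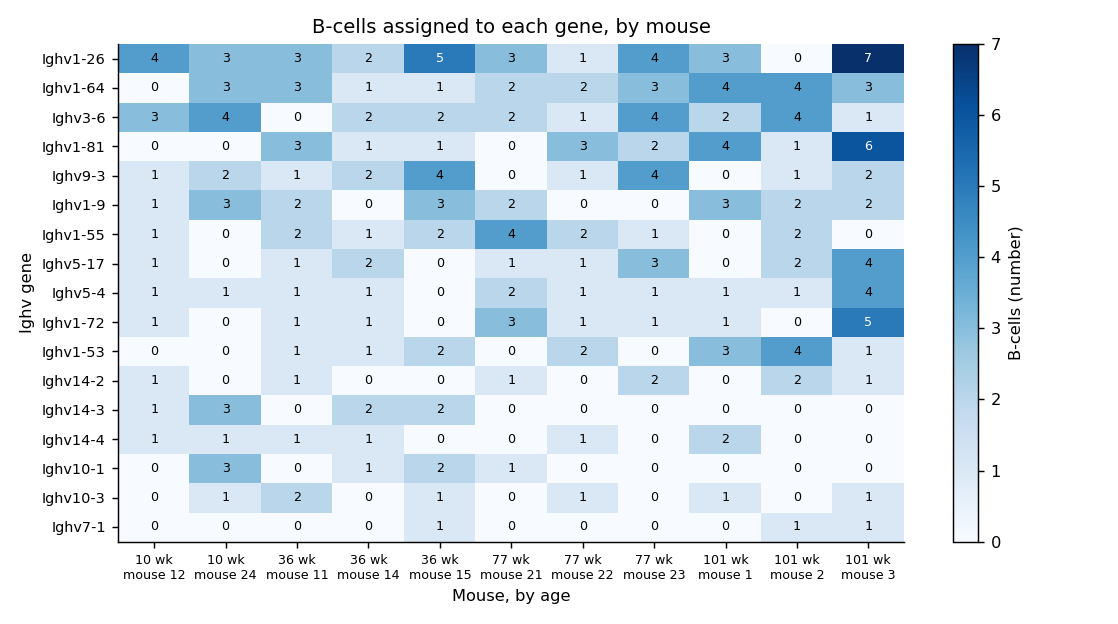
Number of B-cells assigned to each of 17 Ighv genes (rows) in each mouse (columns, ordered by age), with the number written in each field. Ighv14-3 has cells in mice of 10 and 36 weeks and in none of the older mice, and the highest number in 1 mouse is 7, for Ighv1-26 in mouse 3.

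Ighv1-72 was also the gene with the most frequent partner. A second gene with at least 10 counts and 10% of the Ighv counts was present in its 14 cells, and it was Ighv1-62-3 in 13 of them and Ighv5-2 in 1. The printed 300 bases of both V exons, at chr12:115757984-115758283 and chr12:115460999-115461298, are shown because they were 99% identical. The capitals mark the 3 differing bases.
Ighv1-72: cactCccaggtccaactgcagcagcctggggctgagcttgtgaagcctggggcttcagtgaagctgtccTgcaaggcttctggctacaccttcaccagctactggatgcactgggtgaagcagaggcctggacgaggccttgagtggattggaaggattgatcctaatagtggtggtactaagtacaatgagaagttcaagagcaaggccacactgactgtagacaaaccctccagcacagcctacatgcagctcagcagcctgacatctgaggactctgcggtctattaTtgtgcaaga
Ighv1-62-3: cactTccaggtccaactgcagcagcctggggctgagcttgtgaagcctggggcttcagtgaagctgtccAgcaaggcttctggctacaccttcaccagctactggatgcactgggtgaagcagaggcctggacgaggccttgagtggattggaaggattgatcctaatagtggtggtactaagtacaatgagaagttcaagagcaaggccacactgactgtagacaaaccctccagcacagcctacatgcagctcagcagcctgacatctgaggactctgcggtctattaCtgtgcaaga
Counted from 1 at the 5′ end of the printed stretch, with the base of Ighv1-72 first, the differences are C5T, T70A and T291C. T70A falls in the codon of the first conserved cysteine of the variable domain. The annotated V exons of Ighv1-71 and Ighv1-62-2 were identical over 300 bases, and Ighv1-52 and Ighv1-61 shared 98.7%. Ighv1-52 and Ighv1-61 were paired in 8 cells, and Ighv1-71 with Ighv1-62-2 in 2. Values of these genes are therefore uncertain one by one.

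In all, 128 of the 600 B-cells (21.3%) had such a second gene, and in 47 of the 128 it came from the family of the first. The same-family partners shared a median of 98.7% of the aligned bases with the first gene, whereas the 81 partners of another family shared a median of 62.3% and at most 80.3%. For the partners of another family, 38.3% of the first and 34.6% of the second genes were distal. The difference, second minus first, ran from -33.3 to 71.4 percentage points over the mice, lower in 5, higher in 3 and equal in 3, with a mean of -0.167 (exact sign-flip permutation test over 11 mice, two-sided, p = 0.984). This comparison was chosen after the values were seen. Ighv5-2, the member nearest to the constant genes, was the most frequent of them, as second gene in 7 cells of 5 mice and as first gene in 2. The share of B-cells with a second gene ranged from 13.5% to 27.5% over the mice, without a detected relation to age (Pearson r = -0.34, permutation p = 0.311; Spearman rho = -0.37, permutation p = 0.261).

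The level of the assigned gene per kilobase of its exons had a median of 3776 CPM per kb over the 573 cells. It was highest in family 9 (median 6910 CPM per kb, 25 cells) and family 6 (6519, 20 cells), and lowest among families with at least 10 cells in family 2 (1755, 30 cells). Family 6 lay above the median of all assigned cells of the same mouse in 9 of 10 mice, and family 2 lay below it in 9 of 10 mice.

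Among the heavy chain constant genes, which decide the antibody class, Ighm held most counts in 505 B-cells, Ighd in 94 and Igha in 1. The 1 IgA cell, from mouse 1 of the oldest age, stood apart from all others in its Ighv level. It carried 15059 Ighv counts (33471 CPM), whereas the other 572 assigned cells ranged from 42.5 to 7909 CPM. Its gene was Ighv1-81, with 14301 counts, joined to the light chain gene Igkv2-109. It had 36590 Igha counts and 60089 counts of Jchain, the joining chain of secreted IgA and IgM, 404 of Xbp1 and 79 of Sdc1 (CD138), and 0 of Prdm1, Ighm and Ms4a1. Immunoglobulin genes took 32.8% of its counts. It supplied 23.8% of all Ighv counts and 93.9% of the Ighv1-81 counts of its mouse.

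**Figure D3:**
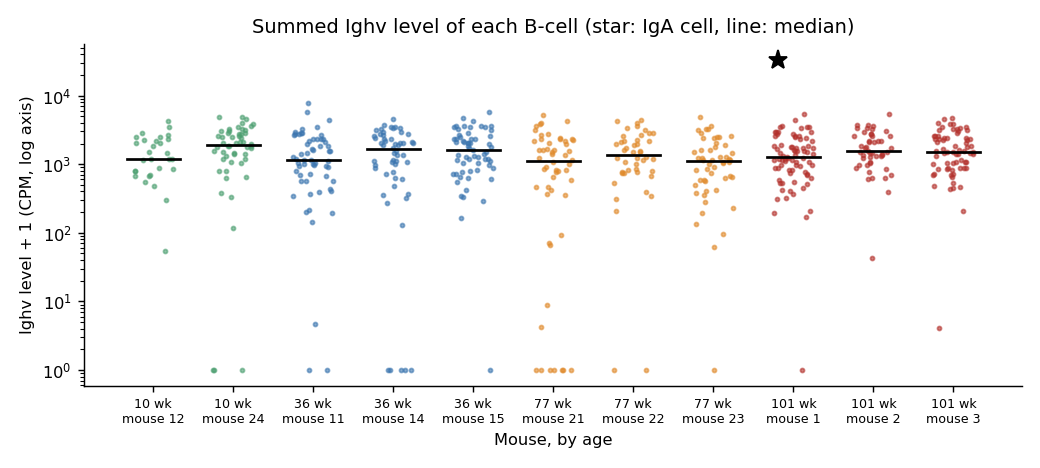
Summed Ighv level of each of the 600 B-cells, in CPM plus 1 on a log axis, by mouse in order of age, with the median as a line and the IgA cell as a star. The medians of the mice lie between 1099 and 1898 CPM, cells without an Ighv count lie at the bottom, and the IgA cell lies above all others at 33471 CPM.

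The next comparisons asked whether Ighv use changed with age. Haemoglobin transcripts, which the study used to grade each cell's contamination by red cells, differed between the mice: the 4 listed genes summed to 51.5 to 11454 CPM of the B-cell counts in the oldest mice and to 6825 to 91381 CPM in the younger mice, and 93.6% to 95.8% against 23.0% to 69.2% of the B-cells were of the lowest grade. None of the 4 genes passed edgeR's adjusted p of 0.1. The shares of use, the diversity measures, the summed level and the number of Ighv genes per cell were repeated in the cells of the lowest haemoglobin grade. The tests of single genes and the share of cells with a second gene were not repeated there. The share of B-cells with an assigned gene was 97.1% ± 4.08 (SD, n = 2) at 10 weeks, 94.7% ± 3.82 (n = 3) at 36 weeks, 92.3% ± 7.87 (n = 3) at 77 weeks and 98.7% ± 1.29 (n = 3) in the oldest mice. It had no detected relation to age (r = 0.06, permutation p = 0.868; rho = 0.15, permutation p = 0.648), and the oldest mice differed from the 8 younger mice by 4.27 percentage points (exact permutation p = 0.218). The summed Ighv level of the B-cells of a mouse was 1814 to 2017 CPM in the oldest mice and 1267 to 1900 CPM in the younger mice. It was 0.26 higher on the log2(CPM + 1) scale in the oldest mice, which did not pass the test (exact permutation p = 0.0606), and the ranges overlapped. Without mouse 24 it was 0.30 (exact permutation p = 0.0417), and without the IgA cell of mouse 1, an alternative chosen after seeing the data, it was 0.14 (exact permutation p = 0.321).

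**Figure D4:**
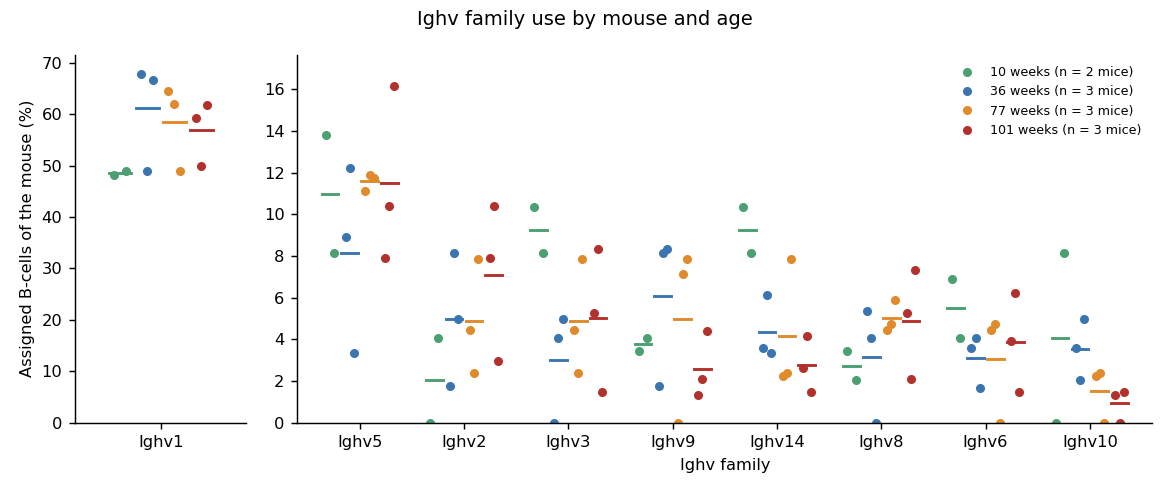
Percent of assigned B-cells of a mouse that use each of 9 Ighv families (y axes start at 0), with a point for each mouse, a line for the mean and a colour for each age. Family 14 has its 2 highest points, 8.16% and 10.3%, at 10 weeks, and family 1 has its lowest points, 48.3% and 49.0%, at 10 weeks, the latter equal to that of mouse 14 of 36 weeks.

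Of the 9 families with at least 10 assigned cells, none passed a Benjamini-Hochberg adjusted p of 0.05 over the 9, either against age or between the oldest and the younger mice. This count depended on single mice: without mouse 12 family 10 passed (r = -0.83, permutation p = 0.00128), and without mouse 23 family 14 passed (r = -0.79, permutation p = 0.00367). Family 1 was used by 48.3% and 49.0% of the cells at 10 weeks and by 49.0% to 67.9% in the older mice (r = 0.22, permutation p = 0.509, adjusted p = 0.561). Family 14 had the lowest unadjusted p. It was used by 10.3% and 8.16% of the cells in the 2 mice of 10 weeks, by 3.57%, 6.12% and 3.33% at 36 weeks, by 2.22%, 2.38% and 7.84% at 77 weeks, and by 2.63%, 4.17% and 1.47% in the oldest mice. Both 10-week mice lay above every older mouse. The relation to age over the 11 mice had r = -0.67 (permutation p = 0.0261) and rho = -0.65 (permutation p = 0.0338). Adjusted over the 9 families these were 0.235 and 0.304, and neither passed. Without mouse 3, 24 or 12 in turn, the unadjusted permutation p for r was 0.0605, 0.0643 and 0.106, and in the cells of the lowest haemoglobin grade it was 0.155 (r = -0.46). When the 2 youngest mice, whose age was farthest from the median, were left out, r was -0.30 (permutation p = 0.432), so the relation rested on those mice. Among the 7 mice with cells of sequencing lane 2, r was -0.78 (exact permutation p = 0.0167). Lane 1 held none of the oldest mice.

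Within family 14, Ighv14-3 had cells only in mice of 10 and 36 weeks. It was assigned to 8 cells, 1 in mouse 12 and 3 in mouse 24 (10 weeks), and 2 each in mouse 14 and mouse 15 (36 weeks), and to none of the 330 assigned cells of the 6 older mice. There its level in summed B-cell counts was at most 0.705 CPM, against 18.1 to 65.4 CPM in the 4 mice with an assigned cell. Mouse 11 of 36 weeks, without an assigned cell, had 0.102 CPM. The level comes from the same counts that assign the cells, so it adds no separate evidence. The other 3 members of the family, Ighv14-1, Ighv14-2 and Ighv14-4, had 2, 8 and 7 cells, and each had a cell in at least 1 of the 6 older mice. At 10 weeks Ighv14-2 and Ighv14-4 had 1 and 2 cells beside the 4 of Ighv14-3, so Ighv14-3 was not the only member in use there.

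Family 10 was used by 0% and 8.16% of the cells at 10 weeks, by 3.57%, 2.04% and 5.0% at 36 weeks, by 2.22%, 2.38% and 0% at 77 weeks, and by 1.32%, 0% and 1.47% in the oldest mice (r = -0.54, permutation p = 0.0793, adjusted p = 0.325; rho = -0.40, permutation p = 0.222). With the 2 youngest mice left out r was -0.73 (permutation p = 0.0205). Its member Ighv10-1 had 7 cells, in mice 24, 14, 15 and 21, and none in the oldest mice. Such an absence was common, as 18 of the 82 used members had cells in the younger mice only. The other families had permutation p-values for r of 0.130 to 0.561. The share of cells on the distal part of the locus was 46.6% ± 2.39 (SD, n = 2) at 10 weeks, 59.7% ± 6.51 (n = 3) at 36 weeks, 59.2% ± 7.16 (n = 3) at 77 weeks and 55.9% ± 7.15 (n = 3) in the oldest mice. It had no detected relation to age (r = 0.31, permutation p = 0.341; rho = 0.18, permutation p = 0.585), and r was -0.25 without the 2 youngest mice (permutation p = 0.499).

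Single genes were tested by edgeR's quasi-likelihood test on B-cell counts summed per mouse, across all 12623 genes with a count in at least 5 B-cells at 2 or more ages. Of the 109 members, 54 passed this filter and 55 did not. Against age, 0 of the 54 members passed an adjusted p of 0.1, beside 0% of all genes tested, and 5 (9.26%) had an unadjusted p under 0.05, beside 5.25% of all genes. Between the oldest and the younger mice, 0 of the 54 passed, beside 0.0475% of all genes tested (0.0396% higher and 0.00792% lower), and 3 (5.56%) were under 0.05 before adjustment, beside 4.96% of all genes. By DESeq2, 4 of the 54 members were called against age, where 5 had no adjusted p, beside 1.33% of all genes with an adjusted p. In the oldest mice 2 of the 54 were called, where 6 had no adjusted p, beside 1.4%. The median slope of the 54 was 0.028 log2 units per 10 weeks, beside 0.0034 for all genes, and the median difference of the oldest mice was 0.17 log2 units, beside -0.03 for all genes. Ighv14-3 had the smallest p in both fits, with a slope of -1.26 ± 0.26 (SE) log2 units per 10 weeks (edgeR adjusted p = 0.622). The tool decided its call, as DESeq2 called it against age (adjusted p = 5.75e-08) and in the oldest mice (adjusted p = 0.000833). Ighv1-81 was higher in the oldest mice by 3.45 ± 1.5 (SE) log2 units (edgeR adjusted p = 0.965), with most of the counts of mouse 1 from the IgA cell. Ighv1-26 differed by -0.97 ± 0.73 (SE) and Ighv3-6 by -0.02 ± 1.22 (SE), both with an edgeR adjusted p of 1.0.

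The genes that work with the heavy chain gave no call by edgeR. All 12 listed partners of the B-cell receptor were tested, among them the signalling chains Cd79a and Cd79b and the kinases Syk, Lyn and Btk, and none passed edgeR's adjusted p of 0.1 against age or in the oldest mice. Cr2 (CD21), a complement receptor of the B-cell receptor complex, and Cd79b came closest, with differences of -0.84 ± 0.14 (SE) and -0.47 ± 0.079 (SE) log2 units in the oldest mice (edgeR adjusted p = 0.103 for both). Of the other lists, 3 of 8 heavy chain constant genes, 1 of 7 recombination and surrogate light chain genes, 2 of 4 genes of class switch and hypermutation, 2 of 7 genes of B-1 and age-associated B-cells and 3 of 4 memory genes could be tested, and none passed.

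The diversity of Ighv use per mouse was compared next. The most used gene of a mouse held 4.08% (mouse 14) to 13.8% (mouse 12) of its assigned cells, that is 2 to 7 cells. Ighv1-26 was the sole most used gene in mouse 12 (4 of 29 cells), mouse 15 (5 of 60) and mouse 3 (7 of 68), and Ighv3-6 in mouse 24, Ighv1-55 in mouse 21 and Ighv1-81 in mouse 22. In the other mice several genes tied. The share of pairs of B-cells of a mouse on the same gene was 2.46% and 2.30% at 10 weeks, 1.23%, 0.85% and 1.92% at 36 weeks, 1.92%, 1.16% and 2.51% at 77 weeks, and 1.47%, 2.22% and 3.34% in the oldest mice. The ages overlapped, and mouse 3 of the oldest age, mouse 23 of 77 weeks and both 10-week mice were the highest in that order.

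**Figure D5:**
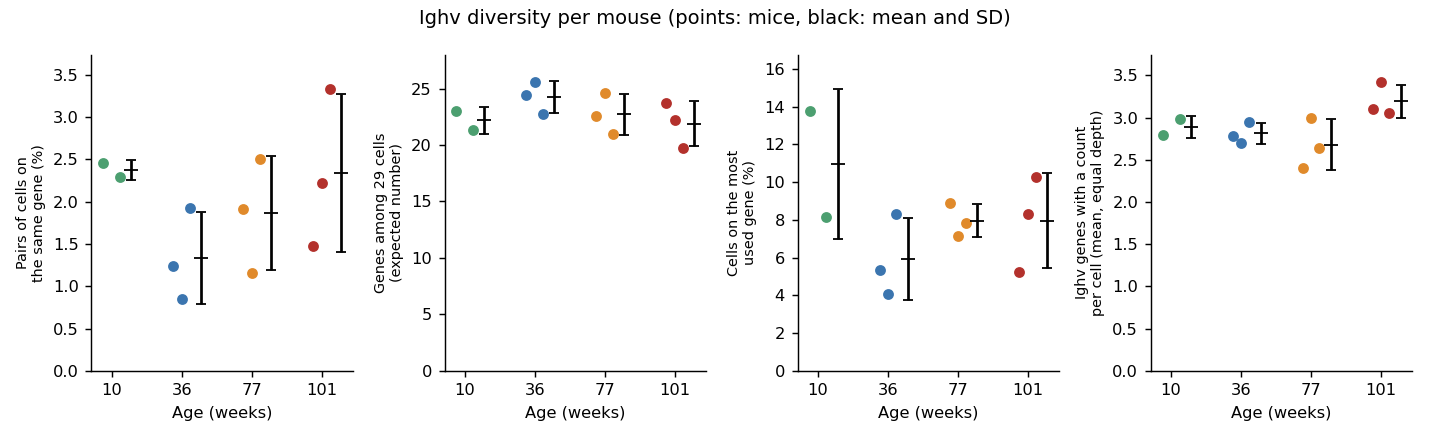
Share of pairs of B-cells on the same Ighv gene, expected number of genes among 29 cells, share of the most used gene and mean number of Ighv genes with a count per cell after thinning to 150000 counts (y axes from 0), by age in weeks, with a point per mouse and the mean and SD in black. The ages overlap in the first 3 panels, and in the last the 3 oldest mice lie above the others, mouse 1 at 3.10 with its IgA cell and at 2.86 without it.

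None of the 4 diversity measures had a detected relation to age. The share of pairs on the same gene had r = 0.16 (permutation p = 0.632; rho = 0.01, permutation p = 0.973) and differed by 0.548 percentage points in the oldest mice (exact permutation p = 0.303). In equal numbers of 29 cells, the number of the mouse with fewest, the expected number of different genes was 22.2 ± 1.17 (SD, n = 2), 24.2 ± 1.41 (n = 3), 22.7 ± 1.81 (n = 3) and 21.9 ± 2.0 (n = 3) at the 4 ages (r = -0.25, permutation p = 0.459; rho = -0.24, permutation p = 0.478). The share of the most used gene had r = -0.17 (permutation p = 0.623; rho = -0.06, permutation p = 0.856). Adjusted over the 4 measures, the p-values for r were 0.632. Without the 2 youngest mice r was 0.55 for the share of pairs (permutation p = 0.122), -0.55 for the number of genes (permutation p = 0.124) and 0.46 for the most used gene (permutation p = 0.209). In the cells of the lowest haemoglobin grade r was -0.23 for the share of pairs and -0.63 for the most used gene (permutation p = 0.0148). The 2 mice of 10 weeks had 11 and 15 such B-cells, the other younger mice at most 37 and the oldest mice 46 to 73. The share of the most used gene was not taken at equal numbers of cells. Its relation to age there cannot be told apart from the number of cells.

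Cells of the same clone should share both chains, so heavy and light chain V genes were read together in the 557 B-cells with both assigned. These held 502 different pairs of genes. In 6 cases 2 cells of a mouse shared a pair, in 5 mice, and no pair was shared by 3 cells. The shared pairs were Ighv1-26 with Igkv10-96 (mouse 12, 10 weeks), Ighv10-3 with a gene of the light chain family Igkv1 (mouse 11, 36 weeks), Ighv1-64 with Igkv10-96 (mouse 22, 77 weeks), Ighv1-26 with Igkv4-59 and Ighv9-3 with Igkv1-117 (both mouse 23, 77 weeks) and Ighv5-6 with Igkv5-48 (mouse 1, oldest age). The counts do not hold the junction sequence, so cells on a pair cannot be told to be 1 clone. The share of pairs of cells on the same 2 genes was 0% to 0.285% per mouse, with r = -0.29 (permutation p = 0.406; rho = -0.25, permutation p = 0.458) and adjusted p = 0.632. In the 7 mice of lane 2, r was -0.71 (exact permutation p = 0.0476). Of these only mice 12, 11 and 1 were above 0, each through 2 cells on 1 pair. They had 27, 53 and 75 cells with both genes assigned, so their values were set by the number of cells. Ighv1-26 with Iglv1 was the pair seen in most mice, in 4 cells of 4 mice.

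The mean number of Ighv genes with a count per B-cell separated the oldest mice from the younger ones only with a single cell of mouse 1 included. After each cell was thinned to 150000 counts, it was 3.10, 3.42 and 3.06 in the oldest mice and 2.41 to 3.0 in the 8 younger mice. With all cells the groups did not overlap. The oldest mice had 0.411 genes more per cell, with an exact permutation p of 0.0121 (the smallest that 3 mice against 8 can give is 0.00606). With at least 3 counts per gene in place of 1, the difference was 0.20 genes (exact permutation p = 0.0606). Within lane 2 it was 0.486 genes (exact permutation p = 0.0286, the smallest possible there). Against age as a slope the relation was not past the threshold (r = 0.33, permutation p = 0.32; rho = 0.46, permutation p = 0.159). The IgA cell of mouse 1 held 22 Ighv genes after thinning, the other B-cells at most 9. Without that cell, an alternative chosen after seeing the data, the mean of mouse 1 was 2.86, below mice 15, 22 and 24, so that the groups overlapped. The difference was then 0.329 genes (exact permutation p = 0.0667) and no longer passed. It was 0.299 genes without mouse 2 (exact permutation p = 0.111) and, in the cells of the lowest haemoglobin grade, 0.441 genes (exact permutation p = 0.121). The share of B-cells with 3 or more Ighv genes was 59.0%, 60.4% and 60.9% in the oldest mice and 38.9% to 53.8% in the younger mice. The B-cells of the oldest mice were also deeper before thinning, with medians of 339110 to 394207 counts per cell against 269220 to 338181.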

How the data were processed

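Gene counts were deposited by the authors without normalization: reads were trimmed with Trim Galore 0.6.7, mapped with STAR to GRCm38 and counted with featureCounts against Ensembl 96. The treatment of multi-mapped reads and of strand is not given in the sources used here. Cell type, mouse and age came from the study's supplementary cell list, and the lane was read from the names of the read files. The labels do not map the 2 deposited samples to ages. Genes were matched to GENCODE M21, the same gene set.

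A B-cell was assigned its largest Ighv gene at 10 counts and 50% of its Ighv counts or more. Shares per mouse were tested against age by Pearson and Spearman correlation (permutation, 100000 resamples, or all orders for 8 mice or fewer) and between the oldest and the younger mice (exact permutation). All tests were two-sided, with a threshold of 0.05. Cells were thinned to 150000 counts with a fixed seed where stated. Counts summed per mouse were tested with edgeR 4.0.16 (TMM, robust quasi-likelihood, Benjamini-Hochberg adjusted p of 0.1), with DESeq2 1.42.0 and limma 3.58.1 as alternatives. The edgeR step was tested on simulated data. V exons were aligned with Biopython 1.88.

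Named genes were the 10 most used members (ties by counts), the most used gene of each mouse with at least 3 cells, every member called, Ighv11-2, Ighv12-3, Ighv7-1 and Ighv1-72. Other genes named were chosen after their values were seen. The members and lists were chosen with earlier results of these data known. Nothing states that mice of an age came from separate litters, so p-values measure the spread between these mice. Depth is 157049 to 1222914 counts per B-cell. Alternatives were other minimum counts and shares, thinning, cells of the lowest haemoglobin grade, pseudogenes, lane 2 alone, other normalizations and filters, and each mouse left out.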

Additional observations from a re-analysis of the deposited data

Results flagged for a closer look

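An Ighv gene was assigned in 7 of the 378 cells of other types, which is 1.85%, a signal in cells that no comparison over age used. They were 5 CD8+ T-cells, 1 NK cell and 1 basophil, with 47 to 174 Ighv counts each and 0 counts of Cd79a. Ighv6-6 was the gene in 3 of the CD8+ T-cells, with 57 counts in mouse 24, 75 in mouse 22 and 47 in mouse 2, and no other Ighv gene had a count there. Ighm counts were present in 1 of those 3 cells (172). In B-cells Ighv6-6 was assigned to 9 of 573 cells. The cause was not tested. Over the 8 younger mice, 17 measures were searched for a single mouse far from the others, and none was found.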

How the results depend on the processing

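Of 444 values recomputed, 392 kept their direction and side of the threshold. The other 52 came mostly from relations near 0, and their cause was not tested beyond what each setting removes. At 50 counts, the distal difference was 0.40 percentage points and r for the most used gene 0.013. At 80% of the Ighv counts, r for the assigned share was -0.082, the distal difference 2.01, the difference for the most used gene -0.21 and r for shared heavy and light genes 0.16. In cells of the lowest haemoglobin grade, r was -0.23 for pairs on a gene, 0.16 for the number of genes, -0.63 for the most used gene (permutation p = 0.0148) and -0.054 for the summed level, and the differences of the oldest from the younger mice were -0.078, 0.012 and -4.74. The younger mice had fewer cells of that grade, and the share of the most used gene was not taken at equal numbers of cells. For the number of Ighv genes per cell, tried there after seeing the data, r was -0.033 and the difference 0.441. In lane 2, r was -0.022 for the assigned share and -0.71 for shared heavy and light genes, and the difference for the most used gene was -0.40. Without the IgA cell, an alternative chosen after seeing the data, r for the summed level was -0.12, the difference in summed level 0.14 and the difference in Ighv genes per cell 0.329. At 3 counts per gene that difference was 0.20 (exact permutation p = 0.0606). DESeq2 called 4 members against age (Ighv14-3, Ighv5-12, Ighv1-36 and Ighv5-9) and 2 in the oldest mice (Ighv14-3 and Ighv10-1), where edgeR called 0. These calls rested on few cells: Ighv5-12, Ighv1-36 and Ighv5-9 were assigned to 2, 3 and 2 B-cells, Ighv14-3 to 8 and Ighv10-1 to 7.

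With each mouse left out, r ranged from -0.058 to 0.36 for the assigned share, -0.085 to 0.26 for the summed level, -0.10 to 0.32 for pairs on a gene, -0.33 to 0.29 for the most used gene and -0.45 to 0.15 for shared heavy and light genes. The difference of the oldest mice ranged from 0.30 to 0.48 genes per cell, from 0.22 to 0.30 for the summed level (exact permutation p down to 0.0417), from -3.32 to 3.61 for the distal share and from -1.15 to 1.36 for the most used gene. The number of families past the adjusted p ranged from 0 to 1: without mouse 12 it was family 10 (r = -0.83) and without mouse 23 family 14 (r = -0.79). Without mouse 12, r for family 14 was -0.55 (permutation p = 0.106). No paired analysis was possible because no label pairs mice of different ages. The number of cells limits single genes, as 12 used members had 1 cell, and thinning the cells to an equal depth changed no direction or call of the use and diversity results.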
